A study of Mus musculus with 6 samples.

Results

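The genes of the cytosolic ribosomal proteins were followed in a mouse fibroblast cell line, NIH3T3, after siRNA against SPT6 and treatment with interferon beta (IFN-beta). They were chosen by symbol, as symbols that start with Rpl or Rps followed by a digit together with Rplp0, Rplp1, Rplp2 and Rpsa, without the ribosomal S6 kinases and without pseudogenes, and with at least 10 counts in each of the 6 libraries. This gave 83 of the 24062 genes in the count tables, 50 with Rpl symbols and 33 with Rps symbols. Another 4 symbols met the name rule and missed the count minimum. Rpl10l, Rps27rt and Rps4l were at 0 counts in every library, and Rpl3l had between 0 and 2. One of the 83, Rps19bp1, is taken by its symbol alone, since it encodes a protein that binds the ribosomal protein RPS19 and is not itself part of the ribosome.

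Cells were transfected with negative control siRNA or with siRNA for SPT6 (gene symbol Supt6), a histone chaperone and transcription elongation factor. After 48 h they were left untreated or received mouse recombinant IFN-beta at 100 units/ml for 4 h. Each of the 2 untreated groups had 1 library, and each of the 2 IFN-beta groups had 2, numbered 1 and 2 in the labels. The untreated libraries are labelled 0 h, so the 4 h themselves cannot be told apart from IFN-beta. No label ties the replicates to separate cultures, so a p-value here covers the spread among these libraries alone, which may be technical. In the values below, the untreated pair is given as control siRNA and then SPT6 siRNA, and the libraries with IFN-beta, called the treated ones, in the order of their numbers.

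A ribosome has a large subunit, built on the Rpl proteins, and a small subunit, built on the Rps proteins, and each of these proteins is as a rule needed in equal number. Their mRNAs are short and among the most abundant of a dividing cell. Most start with a C followed by an unbroken run of pyrimidines, the 5′ terminal oligopyrimidine (TOP) tract, through which growth signals control their translation. Many of the genes also carry small nucleolar RNAs (snoRNAs) in their introns.

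Counts in genes came to between 7935961 and 17596498 per library, and the SPT6 siRNA library was the shallower one in each pair. Supt6, the target of the siRNA, stood at 175 and 101 CPM (counts scaled to library size with TMM factors) in the untreated pair. The treated libraries had 177 and 189 CPM for control and 108 and 88.4 CPM for SPT6 siRNA. The treated groups differed by a log2 value of -0.90 ± 0.18 (SE), not called by edgeR's quasi-likelihood test (Benjamini-Hochberg adjusted p = 0.247). The 12 fibroblast markers, none of them at 0, summed to between 15556 and 22811 CPM. Sets of 9 macrophage, 6 endothelial and 7 epithelial markers summed to at most 19.1, 5.91 and 2.78 CPM, with Epcam and Krt5 at 0 in every library.

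The 83 genes together held 6.91% of the counts in genes in the untreated control library and 6.03% in the untreated SPT6 siRNA library. In the treated libraries their share was 6.73% and 5.69% for control and 5.79% and 4.33% for SPT6 siRNA. The share was thus lower with SPT6 siRNA in each of the 3 pairs of libraries that carry the same treatment and number, while the groups overlapped, because SPT6 siRNA library 1 lay above control library 2. The means with IFN-beta were 6.21% ± 0.734 (SD, n = 2) and 5.06% ± 1.03 (SD, n = 2). Their difference was -1.16 percentage points (exact two-sided permutation test, p = 0.667, where 2 libraries against 2 cannot go below 0.333). In these bulk samples fewer cells and less RNA per cell cannot be told apart. Rn45s, the precursor of ribosomal RNA, took 2.39% of counts in SPT6 siRNA library 2 with IFN-beta and between 0.841% and 1.34% in the others. Without Rn45s in the total the shares of the 83 genes were 6.97% and 6.11% untreated, 6.81% and 5.77% in the treated control libraries, and 5.85% and 4.44% in the treated SPT6 siRNA libraries.

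**Figure D1:**
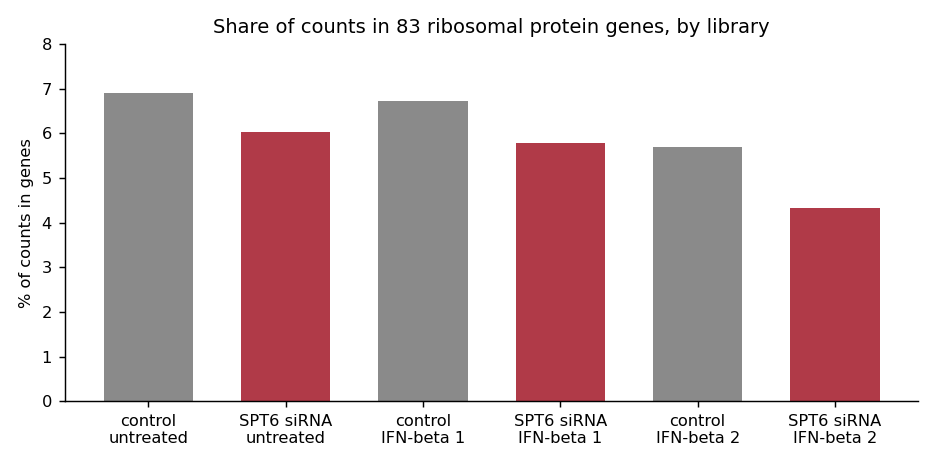
Share of all counts in genes held by the 83 ribosomal protein genes (vertical axis, percent), with 1 bar per library, grey for control siRNA and red for SPT6 siRNA. The red bar is the lower one in each pair, and the lowest bar, at 4.33%, is SPT6 siRNA library 2 with IFN-beta.

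The main comparison asked how the ribosomal protein genes stood with SPT6 siRNA against control siRNA in cells given IFN-beta. Of the 83 genes, 81 had a log2 difference below 0, against 52% of all 13185 genes tested. Their median was -0.37 (quartiles -0.46 and -0.24), and the median over all genes was -0.02. All 50 Rpl genes and 31 of the 33 Rps genes lay below 0, with medians of -0.38 and -0.34, so the genes below 0 came from both subunits. The sign of the median was the same with other scalings, and it was -0.38 with DESeq2's size factors and -0.29 with library size alone.

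No single gene of the 83 was called at an adjusted p under 0.05 by edgeR's quasi-likelihood test without a replicate block, and 0% of all genes were called. A fit with the replicate number as a block did call genes and is described with the other settings at the end. An unadjusted p under 0.05 was reached by 4 of the 83 on the lower side (Rps27, Rpl28, Rpl12 and Rpl35) and by 0 on the higher side, against 4.31% and 7.36% of all genes. The share of members on the lower side is thus near that of all genes. DESeq2 and limma-voom called 0 of the 83 as well, while DESeq2 called 62 genes in all. The 2 treated groups did not overlap for 45 of the 83 genes, with SPT6 siRNA the lower in each of the 45, while over all genes 21.3% had SPT6 siRNA lower without overlap and 22.7% had it higher. The median moved with the libraries used, to -0.23 without control library 1, -0.61 without SPT6 siRNA library 1 and -0.17 without SPT6 siRNA library 2. In these 3 fits 71, 81 and 67 of the genes were below 0.

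**Figure D2:**
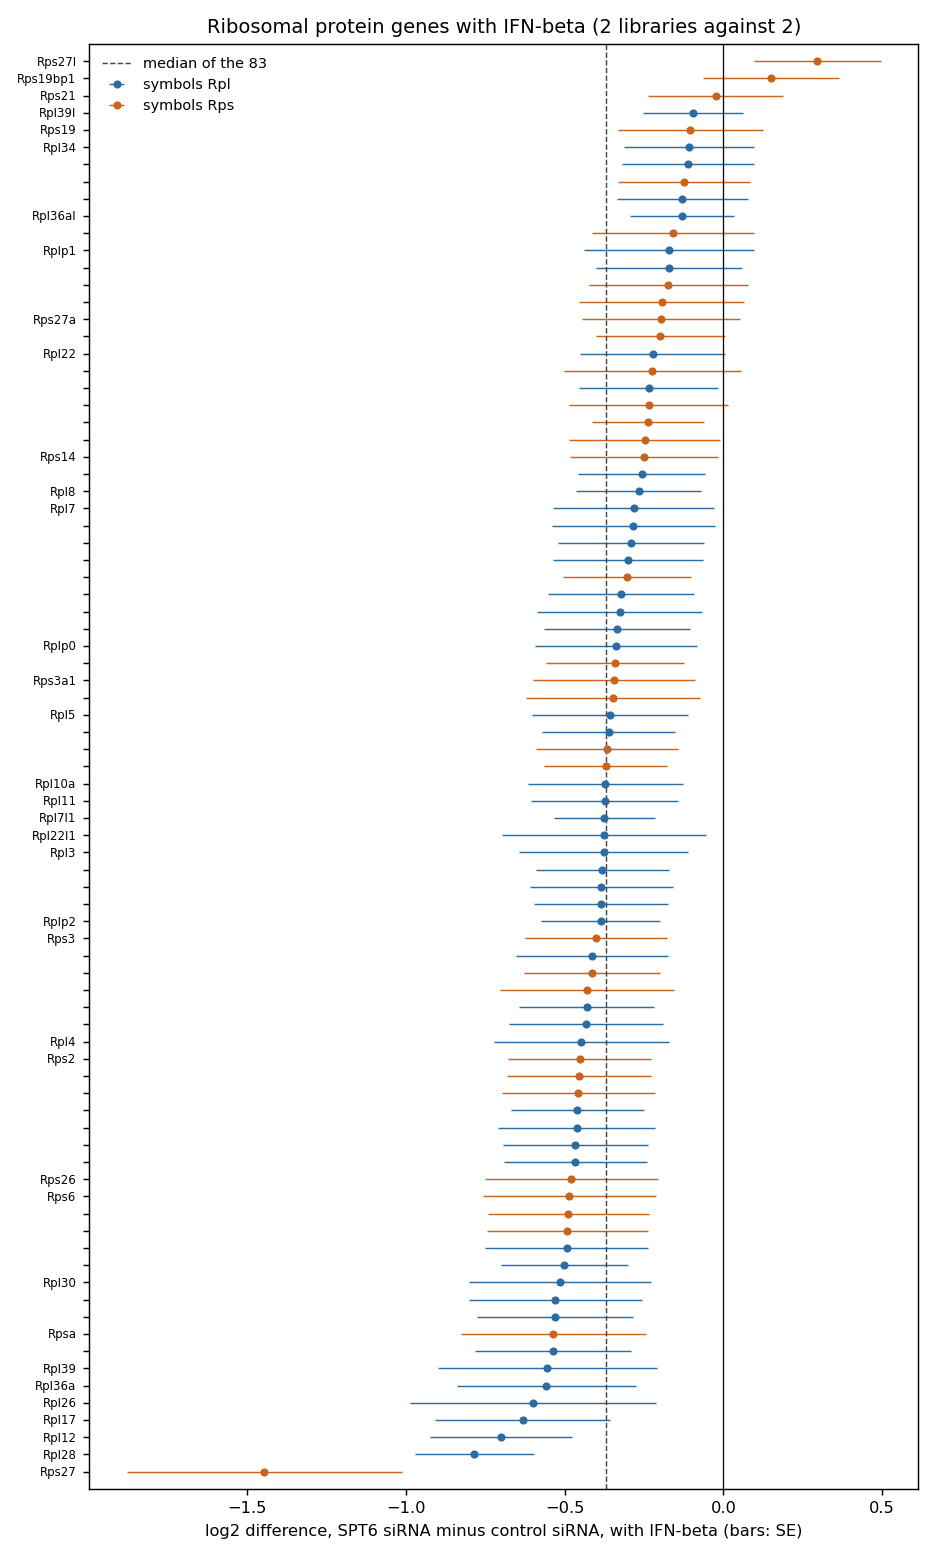
Log2 difference of each of the 83 genes, SPT6 siRNA minus control siRNA with IFN-beta (horizontal axis), with its standard error as a bar, blue for Rpl and orange for Rps symbols, and with the genes of the naming rule labelled. The dashed line marks the median of -0.37, and only Rps27l and Rps19bp1 have their point to the right of 0.

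The Rpl genes with the lowest differences encode proteins of different places in the large subunit. Rpl28 (chromosome 7, 4792874 to 4795066, plus strand, GRCm38, protein coding) encodes a surface protein of the large subunit found in animals and plants but not in budding yeast. It stood at 421 and 298 CPM untreated, at 390 and 350 CPM in the treated control libraries, and at 236 and 193 CPM in the treated SPT6 siRNA libraries. No SPT6 siRNA library reached a control library, and between the treated groups the log2 difference was -0.79 ± 0.19 (SE; edgeR adjusted p = 0.309). The annotated end of Rpl28 overlaps Ube2s (4794546 to 4812590), and reads there are uncertain because the strand setting of the counting is not given in the sources used here.

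Rpl12 (chromosome 2, 32961559 to 32965345, plus strand) encodes a protein at the base of the stalk, the arm of the large subunit that recruits elongation factors. Its levels were 1254 and 930 CPM untreated, 1345 and 1152 CPM in the treated control libraries, and 864 and 672 CPM in the treated SPT6 siRNA libraries. The SPT6 siRNA libraries were again the lowest 3 of the 6, and between the treated groups the log2 difference was -0.70 ± 0.22 (SE; edgeR adjusted p = 0.359). Rpl17, whose protein lines the tunnel of the nascent chain, stood at 800 and 573 CPM untreated, at 825 and 686 CPM in the treated control libraries, and at 606 and 368 CPM in the treated SPT6 siRNA libraries. All 3 SPT6 siRNA libraries were again below all 3 control libraries, with a log2 difference with IFN-beta of -0.63 ± 0.28 (SE; edgeR adjusted p = 0.435). Rpl35 (chromosome 2, 39001580 to 39005624, minus strand), for a protein at the exit of that tunnel, had values of 554 and 424 CPM untreated, 532 and 507 CPM in the treated control libraries and 414 and 320 CPM in the treated SPT6 siRNA libraries. Its difference with IFN-beta was -0.50 ± 0.20 (SE; edgeR adjusted p = 0.410), and the groups did not overlap.

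Rpl36a, on chromosome X, stood at 452 and 376 CPM untreated, at 496 and 377 CPM in the treated control libraries and at 369 and 224 CPM in the treated SPT6 siRNA libraries. Here control library 2 and SPT6 siRNA library 1 nearly met, and the difference was -0.56 ± 0.28 (SE; edgeR adjusted p = 0.492). Rps27 and Rpl26 were the other genes among the 6 lowest, at -1.45 ± 0.43 (SE; edgeR adjusted p = 0.350) and -0.60 ± 0.39 (adjusted p = 0.575). Both rest on few counts: Rps27 had 21 and 17 counts untreated, 44 and 40 in the treated control libraries and 10 and 12 in the treated SPT6 siRNA libraries. Rpl26 had 32 and 12 counts untreated, 34 and 60 in the treated control libraries and 21 and 22 in the treated SPT6 siRNA libraries. The untreated pair of Rps27 goes the other way, with 1.73 CPM in control and 2.04 CPM in SPT6 siRNA.

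Among the roles of the ribosome, the stalk proteins gave 3 different patterns. Rplp0, the stalk's base and the most counted gene of the 83, stood at 3051 and 2687 CPM untreated, 3185 and 2654 CPM in the treated control libraries, and 2643 and 1973 CPM in the treated SPT6 siRNA libraries. With IFN-beta its groups touched without overlap, and the log2 difference was -0.34 ± 0.25 (SE). Rplp1 overlapped between the groups, with 1178 and 800 CPM in control and 1004 and 753 CPM in SPT6 siRNA libraries with IFN-beta. Rplp2 did not overlap with IFN-beta, at 464 and 430 CPM in control and 375 and 309 CPM in SPT6 siRNA libraries, whereas untreated it stood at 399 CPM in control and 415 CPM in SPT6 siRNA.

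Rpl5 and Rpl11, whose proteins travel with the small RNA of the large subunit and can bind the p53 regulator MDM2, were both lower without overlap. Rpl5 stood at 1530 and 1269 CPM untreated, 1556 and 1420 CPM in the treated control libraries and 1372 and 950 CPM in the treated SPT6 siRNA libraries, a log2 difference of -0.36 ± 0.25 (SE). Rpl11 stood at 469 and 440 CPM untreated, 504 and 445 CPM in the treated control libraries and 434 and 298 CPM in the treated SPT6 siRNA libraries, a difference of -0.37 ± 0.23 (SE). In both genes SPT6 siRNA library 1 was close to control library 2, and SPT6 siRNA library 2 was far below. Rpl3, Rpl4 and Rpl8, which build the core of the large subunit, had differences of -0.38, -0.45 and -0.27, and Rpl3 overlapped between the IFN-beta groups.

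In the small subunit, Rps6 encodes the protein that S6 kinases phosphorylate on growth signals. It stood at 2108 and 1740 CPM untreated, 2206 and 1995 CPM in the treated control libraries and 1829 and 1173 CPM in the treated SPT6 siRNA libraries, a difference of -0.49 ± 0.27 (SE; edgeR adjusted p = 0.522). Rpsa, for a protein at the mRNA exit that was also described as a laminin receptor, stood at 2250 and 1759 CPM untreated, 2344 and 1837 CPM in the treated control libraries and 1768 and 1116 CPM in the treated SPT6 siRNA libraries, a difference of -0.54 ± 0.29 (SE). Rps6 and Rpsa did not overlap between the groups. Rps3, at the mRNA entry, had a difference of -0.40. Rps14, Rps19 and Rps27a, the last of which is made as a fusion with ubiquitin, had differences of -0.25, -0.10 and -0.20, and their IFN-beta groups overlapped.

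The genes at the other end of the ranking were few. Rps27l (chromosome 9, 66946086 to 66949516, plus strand), a near copy of Rps27 known as a p53 target, stood at 127 and 142 CPM untreated. Its treated libraries had 132 and 107 CPM for control and 164 and 129 CPM for SPT6 siRNA. It was higher with SPT6 siRNA in each of the 3 pairs, with overlap between the groups, and between the treated groups the log2 difference was 0.30 ± 0.20 (SE; edgeR adjusted p = 0.594). Rps19bp1, the gene that is not a ribosomal protein, had 21 and 27.2 CPM untreated, 28.0 and 36.7 CPM in the treated control libraries and 32.8 and 39.0 CPM in the treated SPT6 siRNA libraries. Its difference was 0.15 ± 0.21 (SE; edgeR adjusted p = 0.823), which became -0.020 without control library 1. Rps21, Rpl39l, Rps19 and Rpl34 followed at -0.02, -0.10, -0.10 and -0.11. Rps21 stood at 390 and 427 CPM untreated, 443 and 365 CPM in the treated control libraries and 448 and 346 CPM in the treated SPT6 siRNA libraries, so that no difference was seen beyond the spread between libraries. With library size alone the Rps21 value was 0.056.

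Some ribosomal proteins have a close relative, a second gene for a similar protein. Rpl39 stood at 513 and 308 CPM untreated, 555 and 350 CPM in the treated control libraries and 394 and 222 CPM in the treated SPT6 siRNA libraries, a difference of -0.56 ± 0.35 (SE). Its relative Rpl39l, known best from the testis, stood at 104 and 111 CPM untreated, 121 and 125 CPM in the treated control libraries and 120 and 110 CPM in the treated SPT6 siRNA libraries, a difference of -0.10 ± 0.16 (SE). Rpl36al was at -0.13 ± 0.16 (SE) beside Rpl36a at -0.56. Rpl22 and Rpl22l1 were at -0.22 ± 0.23 (SE) and -0.38 ± 0.32 (SE), and Rpl7 and Rpl7l1 at -0.28 ± 0.26 (SE) and -0.38 ± 0.16 (SE). The difference within a pair of relatives was not tested. Reads of genes that share long stretches with other annotated genes, such as Rps27, Rpl36a and Rpl36al, are uncertain in number.

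Each pair of libraries with the same treatment and number was also compared on its own. The labels do not say that equal numbers pair the libraries. The treated pairs, and the counts over pairs, thus rest on a matching by number alone. With SPT6 siRNA the median over the 83 genes was -0.22 in the untreated pair, -0.28 in the IFN-beta libraries numbered 1 and -0.47 in those numbered 2, with 73, 79 and 81 genes below 0. All genes had medians of -0.02, -0.00 and -0.03. SPT6 siRNA was lower in each of the 3 pairs for 73 of the 83 genes, against 28.3% of all genes. It was higher in each for 2 genes, Rps27l and Rps19bp1, against 25.8%. For 33 genes the 3 SPT6 siRNA libraries were the lowest of the 6, among them Rpl12, Rpl17, Rpl28, Rps2, Rps6 and Rpsa, and for 0 genes they were the highest. Over all genes those shares were 9.32% and 12.2%.

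The remaining 8 genes, neither lower nor higher in each pair, were Rpl8, Rpl30, Rpl34, Rpl36al, Rpl39l, Rplp2, Rps21 and Rps27. The 2 IFN-beta pairs share no library, and their differences had a Pearson correlation of 0.69 and a Spearman correlation of 0.63 across the 83 genes, beside 0.60 and 0.56 across all genes. The untreated pair shares no library with either of them. With the IFN-beta pair numbered 1 its Pearson correlation was 0.31 across the 83 genes, below the 0.50 across all genes. The Spearman correlations there were 0.60 and 0.49. With the pair numbered 2 the untreated pair had 0.55 (Pearson) and 0.54 (Spearman), beside 0.53 and 0.52 across all genes. These correlations are across genes, which are not independent replicates, and Rps27 lies far from the others.

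**Figure D3:**
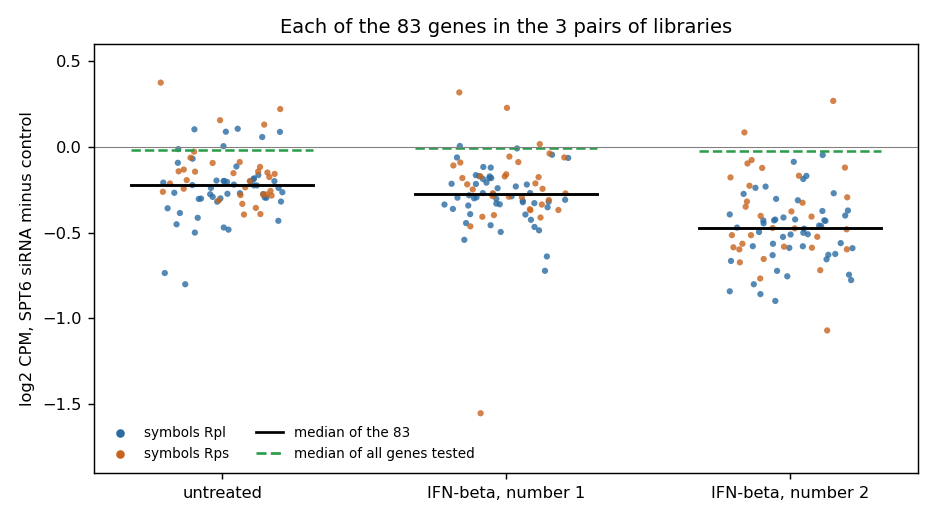
Log2 CPM difference, SPT6 siRNA minus control siRNA (vertical axis), of the 83 genes in each of the 3 pairs of libraries, with 1 point per gene. The black lines, the medians of the 83 genes, lie at -0.22, -0.28 and -0.47, below the dashed medians of all genes tested, which lie near 0 in each pair.

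**Figure D4:**
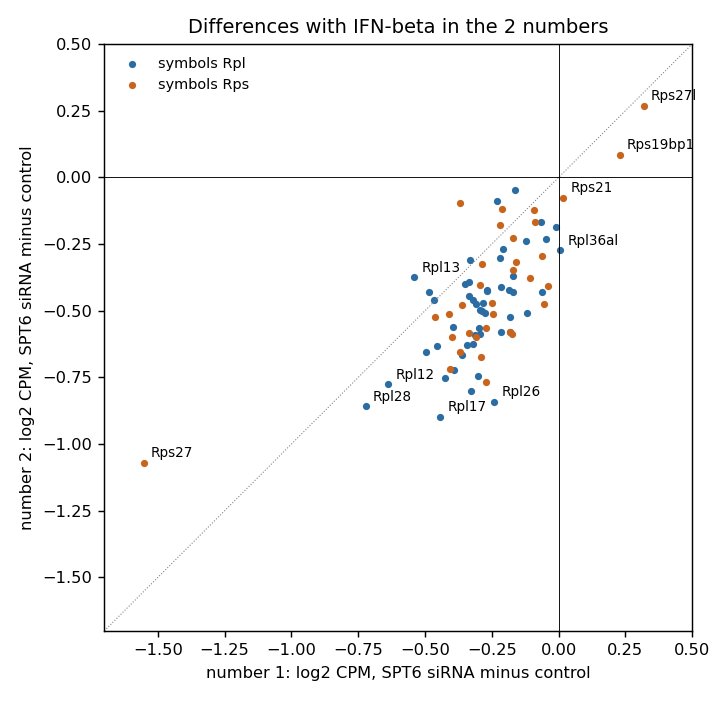
The same difference in the IFN-beta libraries numbered 1 (horizontal axis) against those numbered 2 (vertical axis), with 1 point per gene and the dotted line marking equal values. Rpl28, Rpl12 and Rps27 are low in both pairs, Rps27l and Rps19bp1 are the genes above 0 in both, and most points lie below the dotted line.

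Untreated, the comparison of SPT6 siRNA with control siRNA has 1 library on each side and no replicate check. The fitted median was -0.22, and 73 of the 83 genes were below 0, against 52.2% of all genes. None of the 83 was called by edgeR's quasi-likelihood test, DESeq2 or limma-voom, with 0% of all genes called by edgeR. An unadjusted p under 0.05 was reached by 0 of the 83, against 2.14% of all genes on the higher and 0.463% on the lower side. The 7 lowest genes were Rpl26 (-0.87, on few counts), Rpl39 (-0.74), Rpl28 (-0.50), Rpl17 (-0.48), Rpl10 (-0.47), Rpl23a (-0.45) and Rpl12 (-0.43). Rps27, the lowest gene with IFN-beta, was at 0.24 untreated.

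IFN-beta itself was compared with the untreated library of the same siRNA. With control siRNA the median of the 83 genes was -0.06 and 58 were below 0, against 50.6% of all genes. None was called by edgeR's quasi-likelihood test, which called 0.137% of all genes, nor by DESeq2 or limma-voom, and 0 had an unadjusted p under 0.05, against 5.29% of all genes on the higher and 2.94% on the lower side. The 2 libraries with IFN-beta differed: library 1 lay above the untreated library by a median of 0.06 and library 2 below it by -0.20, with 14 and 69 genes below 0. Only 12 genes were above the untreated library in both and 12 below in both. The 3 lowest genes were Rpl10a (-0.26 ± 0.30, SE), Rpl22l1 (-0.25 ± 0.39) and Rps26 (-0.24 ± 0.33). Rps26, for example, went from 554 CPM in the untreated library to 540 and 399 CPM in the treated ones. The 3 highest were Rps27 (0.71 ± 0.51), Rps19bp1 (0.63 ± 0.27) and Rpl30 (0.63 ± 0.36), all among the genes with few counts.

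With SPT6 siRNA the median against the untreated library was -0.19 and 75 genes were below 0, against 49.3% of all genes. None was called by edgeR, which called 0.0455% of all genes, nor by DESeq2 or limma-voom, and 0 had an unadjusted p under 0.05, against 3.84% of all genes on the higher and 2.01% on the lower side. Library 1 was at a median of 0.03 and library 2 at -0.43, with 35 and 79 genes below 0. Without library 2 the median was 0.013. The comparison shares its SPT6 siRNA libraries with the one between siRNAs. The responses of SPT6 siRNA and control siRNA cells to IFN-beta differed by a median of -0.13, with 72 genes below 0 against 51% of all genes and none called by edgeR, DESeq2 or limma-voom. None of the 83 had an unadjusted p under 0.05 for this difference, against 0.296% of all genes on the higher and 0.0834% on the lower side. Its median turned to 0.016 without control library 1 and to 0.054 without SPT6 siRNA library 2.

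Libraries of the same group also differed in the ribosomal protein genes, by medians of the same order as those between siRNAs. Between the control libraries with IFN-beta the median difference, number 2 minus number 1, was -0.26, and 75 of the 83 genes were lower in number 2. Between the SPT6 siRNA libraries it was -0.43, with 80 genes lower in number 2. All genes had medians of 0.02 and -0.00 in these contrasts. The SPT6 siRNA library with the lowest ribosomal protein level is the one with the highest share of Rn45s (2.39%). Without Rn45s in the counts the median of the IFN-beta comparison between siRNAs was -0.37, as with it.

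The start of these genes was read from RefSeq (GRCm38.p6), which matched 63 of the 83 genes. The windows below run from 35 bases before the annotated start to 15 bases from it, 5′ to 3′ on the strand of the gene. They show 4 genes that were lower in every SPT6 siRNA library (Rpl28, Rpl12, Rpl35 and Rps6) and the 3 genes with the highest differences (Rps27l, Rps19bp1 and Rps21). Capitals mark a TOP-like start, meaning a C at the annotated start or within 5 bases of it followed by at least 4 bases that are C or T. The windows lie at chr7:4792930-4792979 (plus strand, Rpl28), chr2:32961677-32961726 (plus, Rpl12), chr2:39005117-39005166 (minus, Rpl35), chr4:86857353-86857402 (minus, Rps6), chr9:66946051-66946100 (plus, Rps27l), chr15:80264292-80264341 (minus, Rps19bp1) and chr2:180257344-180257393 (plus, Rps21).
Rpl28: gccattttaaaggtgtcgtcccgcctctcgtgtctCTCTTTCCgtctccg
Rpl12: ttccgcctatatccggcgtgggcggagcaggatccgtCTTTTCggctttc
Rpl35: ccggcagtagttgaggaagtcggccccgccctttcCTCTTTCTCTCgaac
Rps6: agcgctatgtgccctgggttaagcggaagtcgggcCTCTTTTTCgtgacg
Rps27l: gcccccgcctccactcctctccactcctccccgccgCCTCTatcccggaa
Rps19bp1: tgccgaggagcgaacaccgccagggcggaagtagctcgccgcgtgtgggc
Rps21: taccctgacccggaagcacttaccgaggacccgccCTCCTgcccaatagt

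Rps19bp1 has no such start in its window, while Rps27l and Rps21 have one, as do the 4 lower genes. By this rule 29 of the 63 genes (46.0%) had a TOP-like start, counting any listed start of a gene, against 21.2% of all 27016 genes with an entry. Other motifs were sought in the whole promoter sequence of any listed start, which is longer than the windows printed above. The ETS core CCGGAAG, on either strand, was found for 41.3% of the 63 genes and 9.93% of all. The GC box GGGCGG, on either strand, was found for 63.5% and 38.2%. The YY1 core AAGATGG, on either strand, was in 15.9% and 7.28%, the letters TATAAA on the sense strand in 9.52% and 9.77%, and the E-box CACGTG in 9.52% and 8.10%. The median log2 difference with IFN-beta was -0.39 for genes with a TOP-like start and -0.35 for those without, -0.39 and -0.37 for the ETS core and -0.36 and -0.37 for the YY1 core. A match describes the letters alone and shows no binding.

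Levels between genes can be compared only per length. As mean log2 CPM per kilobase of all annotated exons the 83 genes ran from 0.66 to 10.94. The highest were Rplp1 (10.94), Rps3a1 (10.78), Rplp0 (10.65) and Rps2 (10.28), and the lowest Rpl26 (0.66), Rps27 (0.75), Rpl30 (1.64) and Rpl34 (2.87). Per kilobase of the longest transcript matched to RefSeq the same 4 genes were lowest, from 2.12 to 4.95, and Rpl41 was highest at 11.17, ahead of Rps2 at 11.16. Of the 83 genes, 75 had at least 1000 counts in each library. The 8 others were Rpl22l1, Rpl26, Rpl30, Rpl34, Rpl39l, Rpl7l1, Rps19bp1 and Rps27. Without those 8 the median of the IFN-beta comparison between siRNAs was -0.37, with 74 of 75 genes below 0.

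Ribosomal protein genes have many processed pseudogenes, and reads that align to more than 1 place, 27.9% to 31.3% of the reads per library, are in no gene. Of all stretches of 50 bases in a gene's transcript, a median of 53.3% also occurred in annotated transcripts of other genes, from 0% in genes such as Rpl39l and Rps19bp1 to 98.6% in Rps27. Of the other 3 genes with the lowest levels, Rpl30, Rpl26 and Rpl34 shared 79.2%, 71.3% and 37.9%. Rpl35 and Rps6 shared 95.1% and 84.6% and were well counted, and the part of shared sequence in the low levels was not tested. For Rpl35, 59.0% of the stretches were shared with Wdr38 (chromosome 2, 38997476 to 39006168). That gene overlaps Rpl35 at the same place and is not a distant copy, and reads there are uncertain, as at Rpl28. The 13 genes that shared under 20% had a median difference with IFN-beta of -0.27, with 11 below 0 and 9 lower in each pair. The other 70 had a median of -0.38, with all 70 below 0 and 64 lower in each pair.

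The 83 genes were also split by whether they host a snoRNA. The 30 genes that hold a snoRNA gene had a median of -0.41 with IFN-beta, with 30 below 0 and 28 lower in each pair. The 53 without had a median of -0.30, with 51 below 0 and 45 lower in each pair, and the difference between these sets was not tested. Transcript length and GC content had Spearman correlations with the difference of -0.05 and -0.10 across the 83 genes, and the share of common stretches one of -0.35. The signs of the first 2 turned between the pairs numbered 1 and 2, with 0.07 and -0.19 for length and -0.25 and 0.10 for GC content. GC content also had a correlation of 0.48 with the difference between the treated SPT6 siRNA libraries, number 2 minus number 1.

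Other genes of protein synthesis were placed beside the ribosomal proteins in the same comparison, SPT6 siRNA against control siRNA with IFN-beta, and none of them was called by edgeR's quasi-likelihood test. The 10 host genes of snoRNAs that make no long protein had a median of -0.55, with 10 of 10 below 0. An unadjusted p under 0.05 was reached by 5 of them, on the lower side. For this list and those below, 52% of all genes lay below 0 in this comparison, and 4.31% had such a p on the lower side. Snhg5 stood at 37.7 and 25.8 CPM untreated, 48.9 and 55.0 CPM in the treated control libraries and 32.2 and 23.5 CPM in the treated SPT6 siRNA libraries, a difference of -0.90 ± 0.22 (SE; edgeR adjusted p = 0.309). The SPT6 siRNA libraries were the lowest 3 of the 6 here and for Snhg6, at -0.87 ± 0.23 (SE; edgeR adjusted p = 0.320). The list was at -0.52 in the untreated pair and at -0.37 and -0.75 in the pairs numbered 1 and 2. Gnb2l1 and Fau, ribosomal proteins that the symbol rule leaves out, were at -0.23 and -0.11.

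Translation factors, with 30 of 36 below 0, had a median of -0.14, and Eef1g, a subunit of elongation factor eEF1, was at -0.51 ± 0.20 (SE) and Eif3d at -0.39 ± 0.18 (SE). Their medians were -0.03 and -0.29 in the pairs numbered 1 and 2. Proteasome subunits likewise had 30 of 36 below 0 and a median of -0.15, yet their median was 0.11 (8 below 0) in the pair numbered 1 and -0.38 (34 below 0) in the pair numbered 2. Among them were Psmd7 at -0.64 and Psmd8 at 0.43. RNA polymerase I and its factors had a median of -0.09 (11 of 15 below 0), with Polr1d at 0.37 and Ubtf at -0.34. The 77 mitochondrial ribosomal proteins had a median of -0.05, with 45 below 0 beside 52% of all genes. Their medians were 0.07 and -0.15 in the pairs numbered 1 and 2. Their lowest p-values belonged to genes that were higher, Mrps6 at 0.59 and Mrpl53 at 0.55.

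**Figure D5:**
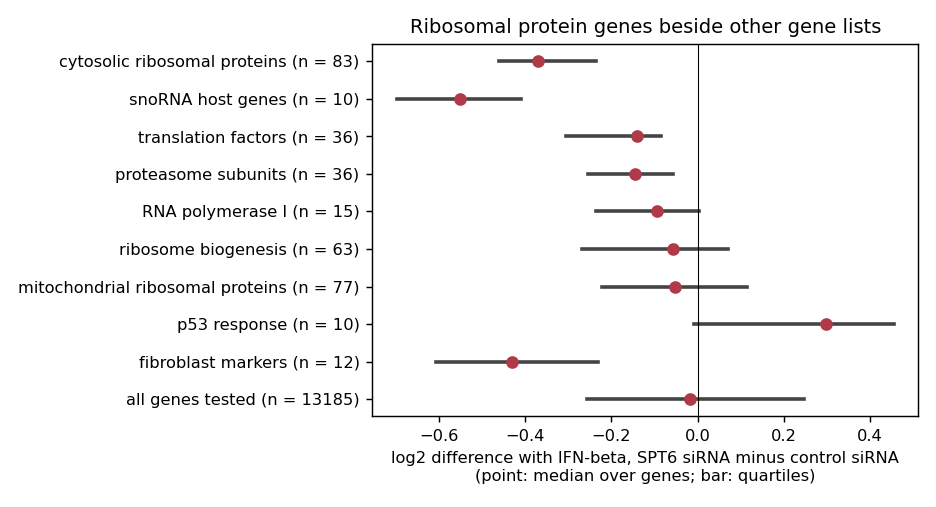
Log2 difference with IFN-beta, SPT6 siRNA minus control siRNA (horizontal axis), of gene lists, with a point for the median over the genes of a list and a bar between its quartiles. The noncoding snoRNA host genes (-0.55), the fibroblast markers (-0.43) and the cytosolic ribosomal proteins (-0.37) have the lowest medians of the lists drawn, the p53 response genes have the highest (0.30), and the others, with all genes, lie between -0.15 and -0.02.

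Ribosome biogenesis factors, which assemble the subunits in the nucleolus, were looked at in 2 comparisons. Between siRNAs with IFN-beta their median was -0.06 with 41 of 63 below 0, against 52% of all genes. Nop10 and Las1l were at 0.52 and 0.46. With IFN-beta against untreated, 60 of the 63 were above 0 with control siRNA, where 50.6% of all genes were below 0. Their median was 0.65, but 0.40 in library 1 and 0.83 in library 2, and 30 had an unadjusted p under 0.05 on the higher side, against 5.29% of all genes and none of the ribosomal proteins. With SPT6 siRNA their median was 0.37, with 7 such genes against 3.84% of all genes. None of the 63 was called by edgeR's quasi-likelihood test for IFN-beta with either siRNA. Each of these IFN-beta comparisons rests on 1 untreated library, and the genes of a list are not replicates. Genes of p53 regulation by ribosomal proteins, drawn as the p53 response, had a median of 0.30 between siRNAs with IFN-beta, with 3 of 10 below 0. In the pairs numbered 1 and 2 their medians were 0.22 and 0.23, with 2 and 4 below 0. They included Rrm2b at 0.81 ± 0.19 (SE; edgeR adjusted p = 0.309). Cdkn1a, the p53 target that blocks the cell cycle, was at 0.48 ± 0.18 (SE; edgeR adjusted p = 0.388). A link of these values to the ribosomal protein level was not tested.

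Other abundant genes, and other abundant and short ones, were also looked at. The 610 other genes with an average log2 CPM of 8 or more had a median of -0.10. The 104 other genes with an average of 7 or more and under 2 kb of exons had one of -0.08. An unadjusted p under 0.05 (edgeR) was reached on the lower side by 27 and 10 of them, against 4.31% of all genes. On the higher side it was reached by 25 and 4, against 7.36%. These sets were not matched to the 83 genes, and the part of abundance and length in the lower ribosomal protein level was not tested. Most markers of fibroblasts were also lower with SPT6 siRNA. In the untreated pair their median was -0.29, where the ribosomal protein genes had -0.22. In the pairs numbered 1 and 2 the marker medians were -0.48 and -0.35, where the ribosomal protein genes had -0.28 and -0.47. The markers are only 12 genes, and the difference between the 2 lists over the pairs was not tested. The markers summed to 21704 CPM in control and 17733 CPM in SPT6 siRNA untreated. With IFN-beta they summed to 22811 and 19857 CPM in control and 16369 and 15556 CPM in SPT6 siRNA. Their median log2 difference with IFN-beta was -0.43. Below 0 were 10 of 12 markers, among them Vim at -0.69 and Col1a1 at -0.63. Macrophage markers summed to between 8.07 and 11.5 CPM in control and between 16.2 and 19.1 CPM in SPT6 siRNA libraries. Much of this rise was in Cd68, at 2.38 and 6.47 CPM untreated. With IFN-beta Cd68 had 2.71 and 2.20 CPM in control and 7.75 and 9.92 CPM in SPT6 siRNA libraries. Csf1r went the other way untreated, at 1.73 and 1.44 CPM. Of the 9 macrophage markers 5 were tested, all at low levels, with 1 below 0 with IFN-beta and 2 untreated. The part of these markers in the lower ribosomal protein level was not tested.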

How the data were processed

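RNA of 6 libraries was sequenced in pairs, per the labels' protocols. The authors deposited whole-number read counts per gene symbol, not normalised. Tools listed in the submitters' processing notes, without their roles, are DESeq2, HTSeq 0.6.1p1 and TopHat2 2.1.0, with the builds GRCm38 and mm10. The annotation and strand setting of the counting are not given in the sources used here. Lines that name no gene stayed out of library sizes and tests: 33.8% to 37.5% of reads had no feature and 27.9% to 31.3% were not uniquely aligned.

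From these counts, edgeR 4.0.16 in R 4.3.3 was run over all genes: filterByExpr with a count minimum of 10 (13185 genes kept, all 83 ribosomal protein genes among them), TMM factors, robust quasi-likelihood fit of 4 group means, Benjamini-Hochberg adjustment over all genes, threshold 0.05. Only the treated groups have replicates, which leaves 2 residual degrees of freedom, and their spread is assumed for the untreated libraries. Each standard error is the size of the log2 difference divided by the square root of F. For pairs of libraries, log2 CPM values had a prior count of 2. Alternatives used DESeq2 1.42.0, limma 3.58.1 (voom), other scalings and filters, a replicate block and each IFN-beta library left out. The script was tested on simulated counts. Libraries of one group were not duplicates (chi-square per degree of freedom 39.6 and 35.0).

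The members and gene lists were chosen with earlier results of these data known. Genes named were the 6 highest and 6 lowest differences between siRNAs with IFN-beta, the 4 highest and 4 lowest levels per length, the 3 highest and 3 lowest differences for IFN-beta with control siRNA, close relatives, a panel by role, Rps19bp1, Supt6 and, per gene list, the 2 smallest p-values. Rpl10, Rpl23a, Rpl35, Rpl41, the printed starts, the splits at 1000 counts and at 20% of shared stretches, by snoRNA host and by level, the RefSeq-matched transcript and the fit without Rn45s were chosen after values were seen. GENCODE (GRCm38) gave the positions and matched 94.6% of symbols. Results for some single genes are not reported here.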

Additional observations from a re-analysis of the deposited data

How the results depend on the processing

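In each of the 5 comparisons, other scalings, filters, tools and the fit without Rn45s left the median of the ribosomal protein genes within the spread between genes and called 0 of them. The medians between siRNAs, untreated and with IFN-beta, stayed below 0 in every alternative run. Leaving out each IFN-beta library, medians ran from -0.61 to -0.17 between siRNAs with IFN-beta, from -0.23 to -0.20 untreated, from -0.20 to 0.062 for IFN-beta with control siRNA, from -0.44 to 0.013 with SPT6 siRNA and from -0.41 to 0.054 for the difference of responses. Between siRNAs with IFN-beta, leaving out 1 library turned the sign of 7 named genes: the ranges were -0.33 to 0.10 for Rps19, -0.24 to 0.14 for Rps21, -0.020 to 0.36 for Rps19bp1, -0.42 to 0.15 for Rplp1, -0.53 to 0.019 for Rpl22, -0.49 to 0.050 for Rps14 and -0.53 to 0.060 for Rps27a. Rps21 was at 0.056 with library size alone, which moved the median of all genes by at most 0.10.

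The replicate numbers are shared only as numbers, since the labels do not say that they pair the libraries. The replicate block takes up 1 of the 2 residual degrees of freedom of the main fit, so its calls rest on 1. With the replicate block, 26 of the 83 genes were called between siRNAs with IFN-beta, all lower, and 2638 of 13185 genes in all. In the untreated comparison 1 was called (308 in all), and the IFN-beta median with control siRNA was 0.13. The differences of number 2 from number 1 correlated between control and SPT6 siRNA at 0.56 over all genes and 0.60 over the 83. The summed share differed by -0.945 and -1.37 points within the numbers 1 and 2 of that pairing.

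With 2 libraries a group, and 1 untreated, 1 library moved a median by as much as the ranges above. Genes with 10 to 60 counts, such as Rps27 and Rpl26, have the widest errors.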
